A study of Mus musculus with 4 samples.

Results

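The genes described here are the natural killer (NK) receptors, granzymes and cytotoxic effector genes of mouse. The rule for them uses symbols and no measured value, although the group was picked for description with earlier results of these data known. It takes all genes whose symbol starts with Klr and a letter between a and k or with Gzm and a letter, plus Ncr1, Nkg7, Prf1, Fcer1g, Tyrobp and Cd244a. That rule found 40 of the 19504 genes with a row in the deposited table. The samples were sorted group 3 innate lymphoid cells (ILC3s), lymphocytes of barrier tissues that lack rearranged antigen receptors and make IL-22 and IL-17. ILC3s were sorted as lineage-negative, CD90 high and CD45 low. The genotypes were circZbtb20-/- (the circZbtb20 knockout), without a circular RNA made from the Zbtb20 gene, its control circZbtb20+/+, Nr4a1-/- (the Nr4a1 knockout), without an orphan nuclear receptor that is induced early after stimulation, and its control Nr4a1+/+. No treatment is named in the labels, which also do not give the tissue, age, sex, strain, number of mice behind a sample or the way the alleles were made. Each genotype had 1 Affymetrix array, so no value has a replicate error, the number of arrays limits the precision, and the comparisons by size below carry no test.

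NK cells and other innate lymphocytes read target cells through pairs of activating and inhibitory receptors. Lectin-like receptors of the Klr family, such as the Ly49, NKR-P1 and NKG2 proteins, bind class I molecules of the major histocompatibility complex, C-type lectins or stress ligands. Activating receptors signal through small adaptors such as FcRγ and DAP12, and the response is the release of granules in which perforin opens the membrane and granzymes, a family of serine proteases, cut substrates in the target cell. Part of the ILC3s carry the NK receptor NKp46, encoded by Ncr1, but ILC3s are known for cytokines more than for killing.

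The 250 bases before and 50 bases after the transcription start, from RefSeq on GRCm38.p6, were matched by symbol for 34 of the 40 genes, without Klra13-ps, Klra16, Klrd1, Klrg1, Klri2 and Tyrobp. The windows were searched on both strands for TGTGGT, the core bound by RUNX factors, GGTGTG, a core bound by T-box factors, and AAAGGTCA, the element bound by NR4A receptors as monomers. The first and second motif can overlap, since TGTGGT ends in the letters with which GGTGTG starts. No binding was measured in these data, so a match is a description of letters only. Windows of 4 genes that the results turn on are shown in lower case with matches to the RUNX core in either orientation in capitals. Ncr1 and Gzmb had large differences in the Nr4a1 comparison, Gzma had the largest difference of the group in the circZbtb20 comparison, and Klra9 differed in opposite directions in the 2 comparisons. The Ncr1 window is chr7:4337465-4337764 on the plus strand, Gzmb is chr14:56262285-56262584, Gzma is chr13:113100932-113101231 and Klra9 is chr6:130193063-130193362, the last 3 on the minus strand.
Ncr1: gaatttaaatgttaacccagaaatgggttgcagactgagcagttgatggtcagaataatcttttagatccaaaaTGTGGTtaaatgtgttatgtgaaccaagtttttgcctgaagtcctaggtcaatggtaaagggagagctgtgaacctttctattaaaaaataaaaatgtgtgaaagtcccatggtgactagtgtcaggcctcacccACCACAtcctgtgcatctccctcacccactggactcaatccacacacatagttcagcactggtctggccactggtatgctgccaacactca
Gzmb: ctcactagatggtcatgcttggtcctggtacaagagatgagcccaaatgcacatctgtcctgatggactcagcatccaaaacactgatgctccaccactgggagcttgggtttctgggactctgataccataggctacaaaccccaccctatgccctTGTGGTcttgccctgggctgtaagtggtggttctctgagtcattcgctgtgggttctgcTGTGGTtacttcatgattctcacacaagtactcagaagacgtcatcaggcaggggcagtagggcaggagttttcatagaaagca
Gzma: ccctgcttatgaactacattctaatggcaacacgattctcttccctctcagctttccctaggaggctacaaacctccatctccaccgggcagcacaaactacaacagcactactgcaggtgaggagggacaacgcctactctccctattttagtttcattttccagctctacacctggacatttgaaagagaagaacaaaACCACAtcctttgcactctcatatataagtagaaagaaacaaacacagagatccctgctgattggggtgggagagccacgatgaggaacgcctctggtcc
Klra9: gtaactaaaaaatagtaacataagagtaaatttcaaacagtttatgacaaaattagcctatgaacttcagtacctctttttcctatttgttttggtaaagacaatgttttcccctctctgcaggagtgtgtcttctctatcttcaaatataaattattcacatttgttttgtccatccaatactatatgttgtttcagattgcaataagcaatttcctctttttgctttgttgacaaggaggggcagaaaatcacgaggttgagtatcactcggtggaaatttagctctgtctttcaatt
TGTGGT was present in 17 of the 34 windows, which is 50%, against 16.9% of 27025 mouse windows of the same length. It lay in 6 of 8 granzyme windows, in both windows of Prf1 and Nkg7 and in all 3 windows of Klrc1, Klrc2 and Klrc3, but in 0 of 8 Ly49 windows, of which Klra9 is the one shown. GGTGTG was present in 7 of the 34 windows, 20.6%, against 19.0% of all windows. AAAGGTCA was present in 1 window, that of Klrb1, and in 1.46% of all windows. Many of these genes arose by duplication and share promoter sequence, so the windows are not independent.

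The labels were checked against Nr4a1 itself and against lists of marker genes. The median of all rows lay between 4.34 and 4.51 on the 4 arrays, on the log2 scale of the deposited values, and is used below as the limit under which a level is taken as low. Nr4a1 itself read 15.98 in circZbtb20-/- and 19.93 in circZbtb20+/+ samples, the ceiling of the deposited values, and 11.63 in Nr4a1-/- and 18.11 in Nr4a1+/+ samples. It was thus lowest on the array labelled Nr4a1 knockout, but far above that array's median of 4.34. Where the deletion lies relative to the probes is not known here, so this level does not settle the label. The array labelled Nr4a1 knockout stood apart in its marker genes. T cell markers lay above the median there in 15 of 15 cases, at levels between 7.94 and 18.92, against levels between 3.71 and 8.95 in the Nr4a1 wild type, and the sum of their log2 levels was 226.0 in Nr4a1-/- and 90.8 in Nr4a1+/+ samples, and 82.49 in circZbtb20-/- and 79.4 in circZbtb20+/+ samples. Of 13 ILC3 markers, 1 of which, Ncr1, belongs to the genes studied here, 11 were at least 2-fold lower in Nr4a1-/- samples. The sum of their levels was 84.95 in Nr4a1-/- and 162.78 in Nr4a1+/+ samples. Ncr1, Ccr6 and Cxcr5 lay below the median of the Nr4a1-/- array, where the highest ILC3 marker level was 19.93, the ceiling. The ILC3 list summed to 191.13 in circZbtb20-/- and 164.25 in circZbtb20+/+ samples, with 8 higher and 3 lower. Markers of ILC2s were lower in both knockouts, 5 of 6 in each, with sums of 24.81 in circZbtb20-/- and 51.16 in circZbtb20+/+ samples, and of 30.15 in Nr4a1-/- and 55.11 in Nr4a1+/+ samples. Genes of pancreas acinar cells were lower in 12 of 13 cases in the circZbtb20 knockout, with sums of 67.98 in circZbtb20-/- and 154.41 in circZbtb20+/+ samples, and in 13 of 13 in the Nr4a1 knockout. Epithelial markers were lower in 9 of 9 cases in the Nr4a1 knockout, with sums of 38.77 in Nr4a1-/- and 72.05 in Nr4a1+/+ samples, and higher in 7 of 9 in Nr4a1+/+ than in circZbtb20+/+ samples. Of 10 macrophage and dendritic cell markers that reached a median, 6 were lower in the Nr4a1 knockout, with sums over all 12 measured of 58.1 in Nr4a1-/- and 77.3 in Nr4a1+/+ samples. Of 11 NK cell and ILC1 markers, 4 of which belong to the genes studied here, 9 reached a median in each pair and 5 were lower in each knockout. Gzma, Klrk1 and Prf1, which are genes studied here, were among the lower ones in both knockouts, so these counts partly repeat the results below. Of all genes that reached a median, 19.4% were at least 2-fold lower in the circZbtb20 knockout and 20.8% in the Nr4a1 knockout. The sums of this list were 70.93 in circZbtb20-/- and 82.56 in circZbtb20+/+ samples, and 66.14 in Nr4a1-/- and 80.59 in Nr4a1+/+ samples. S1pr5 and Khdc1a lay below the median on all 4 arrays. Each knockout has a single array, so the Nr4a1 knockout results cannot be given without the array that stands apart, while the circZbtb20 comparison and that of the wild types do not use it. The part of other cell types in the results was not tested. The names Nr4a1-/- and Nr4a1 knockout below are those of the label, and whether that sample consisted of ILC3s is in doubt from its markers. In sorted bulk samples, fewer cells of a type and less RNA per cell cannot be told apart.

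Of the 40 genes, 34 reached the median on at least 1 array. The remaining 6, Gzmn, Klra16, Klra2, Klrb1a, Klrg2 and Klrh1, read between 2.75 and 4.38 on every array. The number at or above the median was 26 in the circZbtb20 knockout and 30 in its wild type, and 24 in the Nr4a1 knockout and 27 in its wild type. These shares were 65% and 75% for the circZbtb20 pair and 60% and 67.5% for the Nr4a1 pair, where between 50.7% and 50.9% of all genes lay at or above the median of all rows. Only differences within a gene's own row are compared below, since probes differ in brightness.

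**Figure D1:**
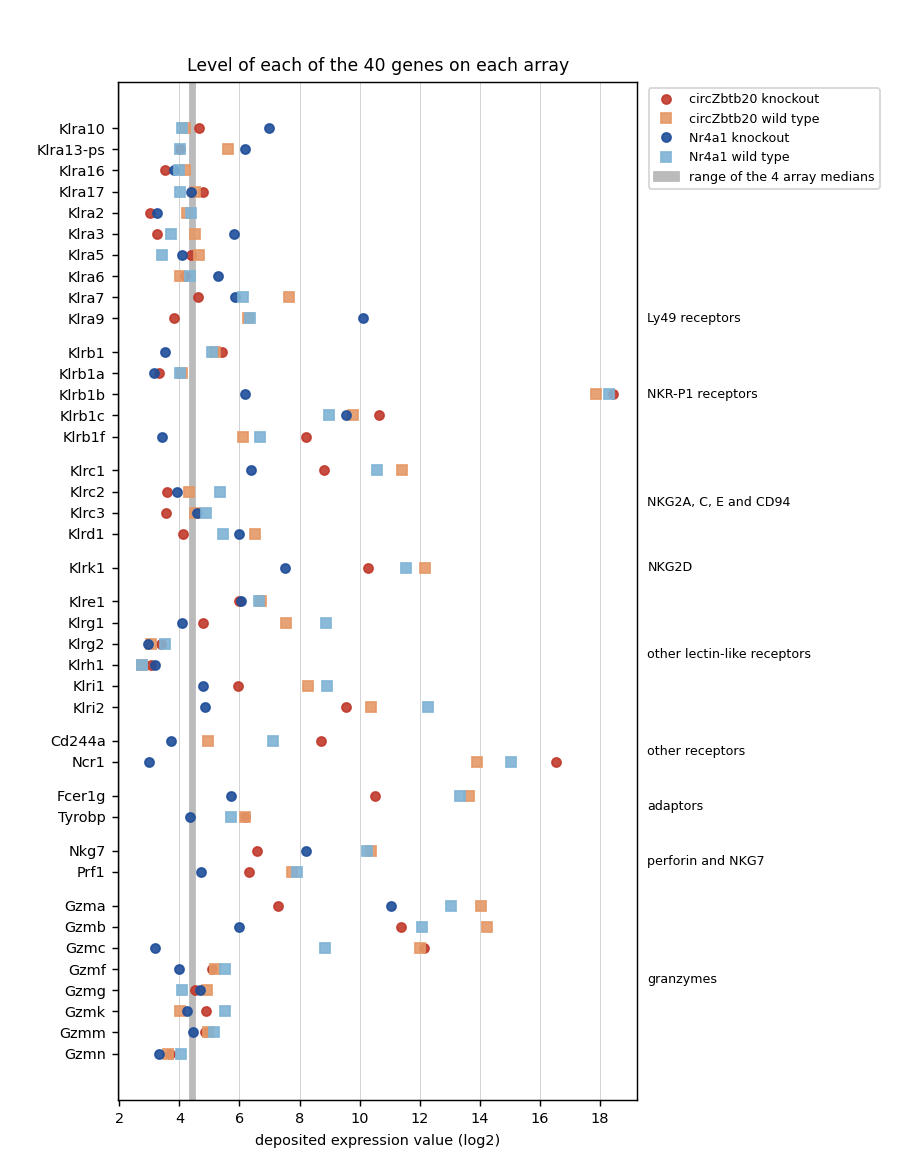
Each row is 1 gene and each mark 1 array, on the log2 scale of the deposited values; circles are knockouts, squares are wild types, and the grey band is the range of the 4 array medians, 4.34 to 4.51. The Klrb1b and Ncr1 circles of the Nr4a1 knockout lie at 6.17 and 3.0, far from the other 3 arrays, and many Ly49 marks lie near the band.

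A gene was counted as higher or lower when its log2 levels differed by at least 1, which is 2-fold, and the higher one reached its array's median. A gene that reached the median on a single array of a pair could thus only be called higher on that array. This holds for the genes studied here and for all genes. In the circZbtb20 comparison 32 of the 40 genes had a level that allowed such a call. Of these, 14 were lower in the circZbtb20 knockout, 43.8%, against 19.4% of the 11122 genes that allowed a call, and 3 were higher, 9.38% against 27.3%. In the Nr4a1 comparison 33 allowed a call. Lower in the Nr4a1 knockout were 20, or 60.6% against 20.8% of 11197 genes, and higher were 4, 12.1% against 31.9%. The wild types also differed from each other. Of 32 genes, 6 were higher and 6 were lower in the Nr4a1 wild type than in the circZbtb20 wild type, 18.8% each, against 8.48% and 6.77% of 10698 genes. Median differences over all 40 genes were -0.70 for the circZbtb20 knockout, -1.20 for the Nr4a1 knockout and -0.06 between the wild types. Over all 19504 genes these medians were 0.04, 0.0 and 0.03. Over the cytotoxic genes that allowed a call the medians were -0.80, -1.54 and -0.12 in the same 3 comparisons, and over all genes that allowed a call 0.17, 0.29 and 0.05.

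**Figure D2:**
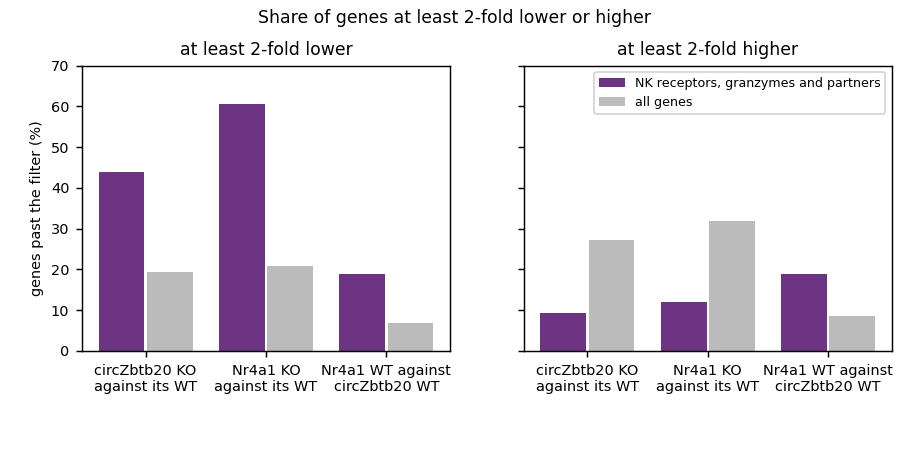
Bars give the percentage of genes at least 2-fold higher or lower in each comparison, for the cytotoxic genes and for all genes that allowed a call. The shares lower are 43.8% against 19.4% of all genes in the circZbtb20 knockout and 60.6% against 20.8% in the Nr4a1 knockout.

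Genes lower in both knockouts against their own wild types numbered 9, which are 64.3% of those lower in the circZbtb20 knockout and 45.0% of those lower in the Nr4a1 knockout. Among all genes those shares were 29.4% and 27.3%. The 9 were Fcer1g, Gzma, Gzmb, Klrc1, Klrg1, Klri1, Klrk1, Nkg7 and Prf1. Cd244a, Klrb1f and Ncr1, the 3 genes that were higher in the circZbtb20 knockout, were all lower in the Nr4a1 knockout, whereas Klra13-ps, Klra3 and Klra9 were lower in the circZbtb20 knockout and higher in the Nr4a1 knockout. Higher in the circZbtb20 knockout and lower in the Nr4a1 knockout were thus 3 of 3 and 3 of 20 of the called genes, where 18.8% and 24.5% of all called genes were. Lower and then higher were 3 of 14 and 3 of 4, where 26.8% and 16.1% of all called genes were. Of the genes with a level above a median, 8 differed by less than 2-fold from their wild type in both knockouts, namely Gzmg, Gzmm, Klra17, Klra5, Klra6, Klrb1c, Klrc3 and Klre1.

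A stricter count asked for a 2-fold difference in one direction against both wild types. In the circZbtb20 knockout 11 of 29 genes stayed lower, against 14.4% of all genes, and 3 stayed higher, against 22.3%. In the Nr4a1 knockout 18 of 31 stayed lower, against 15.7% of 10730 such genes, and 3 stayed higher, against 28.4%. Klrc2 and Gzmk were the genes lower in the Nr4a1 knockout against its own wild type that this count dropped, and Klra13-ps was the higher one. In the circZbtb20 knockout it dropped Gzmb, Klra13-ps and Klra3. Both stricter counts share their wild types, so they are not independent of each other.

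Ly49 receptors bind class I molecules, and most inhibit. Of 10 Ly49 genes, 7 allowed a call in each pair. In circZbtb20-/- samples 4 of 7 were lower, against 19.4% of all genes that allowed a call, and 0 were higher, against 27.3%. In this pair Klra3, Klra13-ps, Klra9 and Klra5 reached the median only on the circZbtb20+/+ array, so they could be called lower but not higher. Klra10 reached it only on the circZbtb20-/- array, so it could be called higher but not lower. In Nr4a1-/- samples 4 of 7 were higher, against 31.9%, and 0 were lower, against 20.8%. In this pair Klra10, Klra13-ps, Klra3, Klra6 and Klra17 reached the median only on the Nr4a1-/- array. The filter thus let them be called higher but not lower, so the Ly49 counts are partly set by the filter. Klra9, which encodes the inhibitory Ly49I and whose promoter is shown above, read 3.81 in circZbtb20-/- and 6.28 in circZbtb20+/+ samples, and 10.11 in Nr4a1-/- and 6.35 in Nr4a1+/+ samples. It was the lowest of the 4 arrays in circZbtb20-/- samples and the highest in Nr4a1-/- samples, while the wild types differed by 0.07. Klra7, encoding the inhibitory Ly49G, read 4.61 in circZbtb20-/- and 7.66 in circZbtb20+/+ samples, and 5.86 in Nr4a1-/- and 6.13 in Nr4a1+/+ samples. Its wild types differed by -1.53, Nr4a1+/+ minus circZbtb20+/+, about as much as the circZbtb20-/- array differed from the Nr4a1+/+ array, -1.52. Klra3, encoding the inhibitory Ly49C, read 3.27 in circZbtb20-/- and 4.51 in circZbtb20+/+ samples, and 5.81 in Nr4a1-/- and 3.73 in Nr4a1+/+ samples. The pseudogene Klra13-ps read 4.02 in circZbtb20-/- and 5.61 in circZbtb20+/+ samples, and 6.19 in Nr4a1-/- and 4.02 in Nr4a1+/+ samples. For Klra3 and Klra13-ps the Nr4a1-/- array was the highest of the 4, but Klra13-ps in the circZbtb20+/+ array came within 1 log2 unit of it. Klra10, encoding Ly49J, read 6.99 in Nr4a1-/- and 4.08 in Nr4a1+/+ samples, and 4.66 in circZbtb20-/- and 4.19 in circZbtb20+/+ samples. Klra6, encoding Ly49F, read 5.28 in Nr4a1-/- and 4.35 in Nr4a1+/+ samples, just under the 2-fold limit, and 4.20 in circZbtb20-/- and 4.02 in circZbtb20+/+ samples. Both genes lay near or below the median on the other 3 arrays. Klra5, encoding Ly49E, read 4.10 in Nr4a1-/- and 3.43 in Nr4a1+/+ samples, and 4.37 in circZbtb20-/- and 4.64 in circZbtb20+/+ samples. Klra17, encoding Ly49Q, read 4.4 in Nr4a1-/- and 4.01 in Nr4a1+/+ samples, and 4.79 in circZbtb20-/- and 4.53 in circZbtb20+/+ samples. Neither gene differed by 2-fold in a knockout. These genes are close copies of one another, so their probes may share signal and the differences are not independent. The higher Ly49 levels occur on the array where 15 of 15 T cell markers are higher, and the part of T cells in them was not tested.

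NKR-P1 receptors recognise C-type lectin-related ligands. Of 5 such genes, 4 allowed a call in each pair. In Nr4a1-/- samples 3 of 4 were lower, against 20.8% of all genes that allowed a call, and 0 were higher, against 31.9%. In circZbtb20-/- samples 1 of 4 was higher, against 27.3%, and 0 were lower, against 19.4%. Klrb1b, which encodes an inhibitory receptor of this family, read 6.17 in Nr4a1-/- and 18.31 in Nr4a1+/+ samples, and 18.45 in circZbtb20-/- and 17.88 in circZbtb20+/+ samples. Its levels on the other 3 arrays lay within 1 log2 unit of each other, and its level on the Nr4a1-/- array lay within 2 log2 units of that array's median. Klrb1c, its neighbour among the measured genes in the RefSeq order, encodes the activating receptor NK1.1 and read 9.56 in Nr4a1-/- and 8.97 in Nr4a1+/+ samples, and 10.63 in circZbtb20-/- and 9.79 in circZbtb20+/+ samples. Its differences were 0.59 and 0.84, beside -12.14 and 0.57 for Klrb1b, in the Nr4a1 and circZbtb20 pairs. Klrb1f read 8.21 in circZbtb20-/- and 6.13 in circZbtb20+/+ samples, and 3.41 in Nr4a1-/- and 6.68 in Nr4a1+/+ samples. Klrb1 read 3.53 in Nr4a1-/- and 5.07 in Nr4a1+/+ samples, and 5.43 in circZbtb20-/- and 5.17 in circZbtb20+/+ samples. Both lay below the median of the Nr4a1-/- array and of no other array, so in the Nr4a1 pair they could be called lower but not higher. Clec2d, which encodes the ligand of the Klrb1b product, read 16.10 in Nr4a1-/- and 15.14 in Nr4a1+/+ samples, and 12.09 in circZbtb20-/- and 13.59 in circZbtb20+/+ samples.

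NKG2A, encoded by Klrc1, pairs with CD94 and inhibits, whereas NKG2D, encoded by Klrk1, activates through DAP10. Klrc1 read 8.83 in circZbtb20-/- and 11.41 in circZbtb20+/+ samples, and 6.39 in Nr4a1-/- and 10.59 in Nr4a1+/+ samples. Klrk1 read 10.28 in circZbtb20-/- and 12.19 in circZbtb20+/+ samples, and 7.51 in Nr4a1-/- and 11.56 in Nr4a1+/+ samples. Both genes were highest in the wild types, lower in circZbtb20-/- samples and lowest in Nr4a1-/- samples, and the wild types differed by -0.82 for Klrc1 and -0.63 for Klrk1. Klrd1, which encodes CD94, read 4.13 in circZbtb20-/- and 6.51 in circZbtb20+/+ samples, and 5.99 in Nr4a1-/- and 5.46 in Nr4a1+/+ samples. CD94 thus differed from its partner gene in the Nr4a1 pair, with a difference of 0.53 where Klrc1 had -4.20. Klrc2, encoding NKG2C, read 3.91 in Nr4a1-/- and 5.36 in Nr4a1+/+ samples, and 3.57 in circZbtb20-/- and 4.33 in circZbtb20+/+ samples. Klrc3, encoding NKG2E, read 4.59 in Nr4a1-/- and 4.87 in Nr4a1+/+ samples, and 3.56 in circZbtb20-/- and 4.52 in circZbtb20+/+ samples. All 8 of these values lay within about 1 log2 unit of the array medians, where differences are poorly measured.

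Klri1 and Klri2 encode chains that pair with the product of Klre1, as known from rat, and Klrg1 encodes an inhibitory receptor for cadherins. Klri2 read 4.86 in Nr4a1-/- and 12.29 in Nr4a1+/+ samples, and 9.53 in circZbtb20-/- and 10.39 in circZbtb20+/+ samples. Klri1 read 4.79 in Nr4a1-/- and 8.90 in Nr4a1+/+ samples, and 5.96 in circZbtb20-/- and 8.28 in circZbtb20+/+ samples. Klre1, the partner gene, read 6.06 in Nr4a1-/- and 6.64 in Nr4a1+/+ samples, and 5.98 in circZbtb20-/- and 6.71 in circZbtb20+/+ samples. The spread of Klre1 over the 4 arrays was under 1 log2 unit, while both partners had their lowest level in Nr4a1-/- samples. Klrg1 read 4.10 in Nr4a1-/- and 8.89 in Nr4a1+/+ samples, and 4.79 in circZbtb20-/- and 7.56 in circZbtb20+/+ samples. The wild types differed by 1.33 for Klrg1 and 1.90 for Klri2, and both knockouts lay below both wild types for these genes.

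Ncr1 encodes NKp46, an activating receptor that signals through FcRγ, and Cd244a encodes 2B4, which binds CD48. Ncr1 read 3.0 in Nr4a1-/- and 15.05 in Nr4a1+/+ samples, and 16.55 in circZbtb20-/- and 13.91 in circZbtb20+/+ samples. Its level in Nr4a1-/- samples lay below that array's median, and the circZbtb20-/- array was the highest of the 4. Cd244a read 3.73 in Nr4a1-/- and 7.13 in Nr4a1+/+ samples, and 8.73 in circZbtb20-/- and 4.94 in circZbtb20+/+ samples. The same order held, with the Nr4a1-/- array lowest and the circZbtb20-/- array highest. The wild types differed by 1.14 for Ncr1 and by 2.19 for Cd244a, beside circZbtb20 differences of 2.64 and 3.79. Cd48, the ligand gene of 2B4, read 8.80 in circZbtb20-/- and 6.61 in circZbtb20+/+ samples, and 7.82 in Nr4a1-/- and 6.7 in Nr4a1+/+ samples.

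The adaptor FcRγ is encoded by Fcer1g and the adaptor DAP12 by Tyrobp. Fcer1g read 5.73 in Nr4a1-/- and 13.33 in Nr4a1+/+ samples, and 10.51 in circZbtb20-/- and 13.63 in circZbtb20+/+ samples. The wild types were alike, 0.30 apart, and both knockouts lay below them, with differences of -7.60 for Nr4a1 and -3.12 for circZbtb20. Tyrobp read 4.35 in Nr4a1-/- and 5.72 in Nr4a1+/+ samples, and 6.17 in circZbtb20-/- and 6.18 in circZbtb20+/+ samples. Its circZbtb20 difference was -0.01 and its Nr4a1 difference -1.37. FcRγ also serves the high-affinity IgE receptor of mast cells and basophils, of whose 12 markers at most 2 lay at or above the median on any array. Of 10 macrophage and dendritic cell markers that allowed a call, 3 were lower in circZbtb20-/- and 6 in Nr4a1-/- samples, with 0 higher in either. The part of these cell types in the Fcer1g and Tyrobp levels was not tested. Cd247, which encodes CD3ζ, another chain that signals for NKp46, read 13.36 in Nr4a1-/- and 4.99 in Nr4a1+/+ samples. It is also on the T cell list.

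Prf1 encodes perforin and Nkg7 a granule membrane protein that takes part in granule release. Nkg7 read 6.59 in circZbtb20-/- and 10.38 in circZbtb20+/+ samples, and 8.22 in Nr4a1-/- and 10.24 in Nr4a1+/+ samples. Prf1 read 6.31 in circZbtb20-/- and 7.74 in circZbtb20+/+ samples, and 4.72 in Nr4a1-/- and 7.93 in Nr4a1+/+ samples. For both genes each knockout lay below both wild types, which differed by -0.14 for Nkg7 and 0.19 for Prf1. The lower of the knockouts was circZbtb20-/- for Nkg7 and Nr4a1-/- for Prf1.

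Granzyme A cuts proteins after basic residues and granzyme B after aspartate. Of 8 granzyme genes, 7 allowed a call in each pair. Lower in circZbtb20-/- samples were 2 of 7, against 19.4% of all genes that allowed a call. Lower in Nr4a1-/- samples were 5 of 7, against 20.8%. In both knockouts 0 were higher, against 27.3% for circZbtb20 and 31.9% for Nr4a1. In the Nr4a1 pair Gzmc, Gzmf and Gzmk reached the median only on the Nr4a1+/+ array, so they could be called lower but not higher. Gzmg in that pair and Gzmk in the circZbtb20 pair reached it only on the knockout array, so they could not be called lower. Gzma read 7.28 in circZbtb20-/- and 14.04 in circZbtb20+/+ samples, and 11.04 in Nr4a1-/- and 13.05 in Nr4a1+/+ samples. The circZbtb20-/- array was the lowest, 5.77 log2 units below the Nr4a1+/+ array as well. Gzmb read 11.37 in circZbtb20-/- and 14.23 in circZbtb20+/+ samples, and 6.0 in Nr4a1-/- and 12.06 in Nr4a1+/+ samples. Its wild types differed by -2.17, and against the Nr4a1+/+ array the circZbtb20-/- difference was -0.69, under the 2-fold limit. Gzmc, a chymase-like granzyme, read 12.13 in circZbtb20-/- and 12.0 in circZbtb20+/+ samples, and 3.18 in Nr4a1-/- and 8.86 in Nr4a1+/+ samples. It had the widest gap between wild types of all 40 genes, -3.14, and lay below the median only on the Nr4a1-/- array. Gzmf read 3.98 in Nr4a1-/- and 5.52 in Nr4a1+/+ samples, and 5.08 in circZbtb20-/- and 5.18 in circZbtb20+/+ samples. Gzmk, which like Gzma encodes a tryptase-like granzyme, read 4.26 in Nr4a1-/- and 5.53 in Nr4a1+/+ samples, and 4.89 in circZbtb20-/- and 4.03 in circZbtb20+/+ samples. The Gzmk difference of -1.27 in the Nr4a1 pair became 0.23 against the circZbtb20+/+ array. Gzmm read 4.46 in Nr4a1-/- and 5.16 in Nr4a1+/+ samples, and 4.86 in circZbtb20-/- and 4.96 in circZbtb20+/+ samples. Gzmg read 4.69 in Nr4a1-/- and 4.07 in Nr4a1+/+ samples, and 4.51 in circZbtb20-/- and 4.93 in circZbtb20+/+ samples. Neither of these last genes differed by 2-fold, and all their values were within 1 log2 unit of the array medians. The promoter windows of Gzma and Gzmb are shown above.

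**Figure D3:**
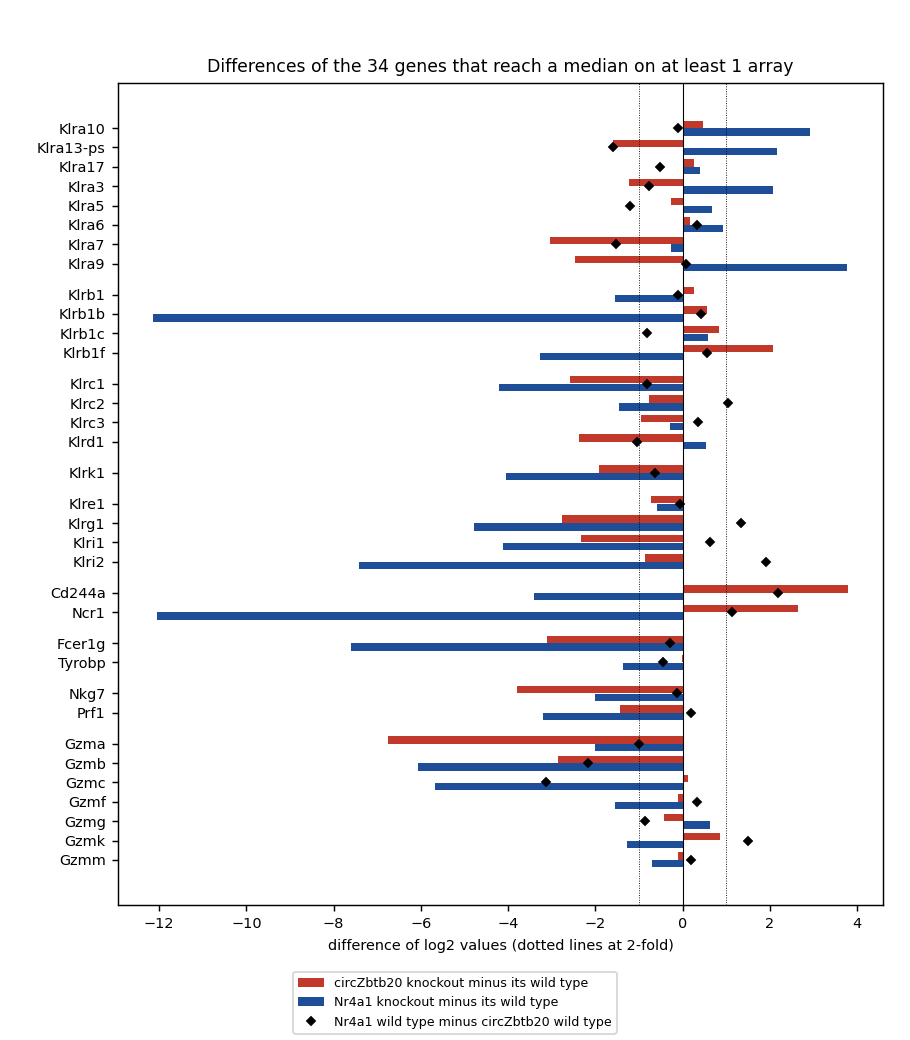
Bars show the log2 difference of each knockout from its own wild type, red for circZbtb20 and blue for Nr4a1, for the 34 genes with a level at or above a median on at least 1 array; diamonds show the difference between the wild types and dotted lines mark 2-fold. Klrb1b and Ncr1 reach -12.14 and -12.05 in the Nr4a1 knockout, and Gzma reaches -6.76 in the circZbtb20 knockout.

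Most of these genes lie in clusters, whose order was taken from RefSeq on GRCm38.p6. The lectin-like receptor cluster holds 23 of the genes. Without regard to the level filter, 9 of these were at least 2-fold lower and 4 higher in the Nr4a1 knockout, and 9 lower and 1 higher in the circZbtb20 knockout. Without the filter, the shares of all genes were 13% lower and 18.6% higher for Nr4a1, and 12.1% lower and 16.1% higher for circZbtb20. The 4 higher ones, Klra9, Klra10, Klra13-ps and Klra3, follow one another among the measured genes except for Klra7, whose difference was -0.27. Among the lower ones, Klrc1, Klri1 and Klri2 also follow one another. In the granzyme cluster Gzmf, Gzmc and Gzmb, which follow one another, had differences of -1.54, -5.68 and -6.06 in the Nr4a1 knockout, and Gzmg 0.62. Gzma and Gzmk are a pair elsewhere. In the circZbtb20 knockout Gzma differed by -6.76 and Gzmk by 0.86.

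**Figure D4:**
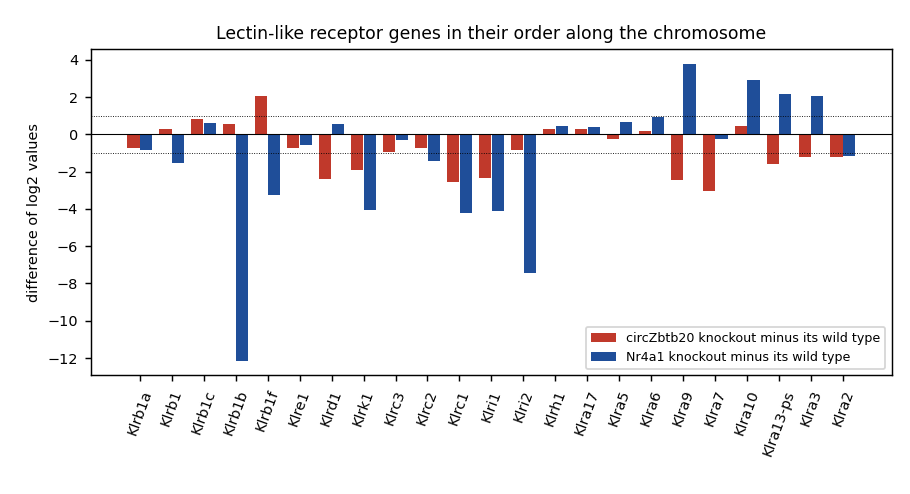
The 23 genes of the lectin-like receptor cluster are placed in order along the chromosome, with the log2 difference from the own wild type on the vertical axis. The Nr4a1 knockout bars reach above 1 for Klra9, Klra10, Klra13-ps and Klra3, and are deepest for Klrb1b at -12.14.

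Other genes of the pathway were counted by the same rule, from lists chosen with earlier results of these data known. Of 20 genes of granule formation and release, 4 were higher and 5 lower in each knockout. Serpinb9, an inhibitor of granzyme B, read 6.39 in Nr4a1-/- and 17.36 in Nr4a1+/+ samples, and 17.26 in circZbtb20-/- and 17.70 in circZbtb20+/+ samples. Stx11, a syntaxin needed for granule fusion in humans, read 2.84 in Nr4a1-/- and 10.66 in Nr4a1+/+ samples, and 9.19 in circZbtb20-/- and 11.38 in circZbtb20+/+ samples. Vamp8 was higher at 11.13 in circZbtb20-/- against 7.21 in circZbtb20+/+ samples. Of 16 genes that carry the activating signal, 6 were higher and 3 lower in the Nr4a1 knockout, and 4 and 3 in the circZbtb20 knockout. The higher ones included Lat in both pairs, at 14.41 in Nr4a1-/- and 8.36 in Nr4a1+/+ samples, and 10.62 in circZbtb20-/- and 8.3 in circZbtb20+/+ samples. Among 9 inhibitory and SAP adaptors, 7 allowed a call in the Nr4a1 pair and 8 in the circZbtb20 pair. Of these, 4 were higher in the Nr4a1 knockout and 3 in the circZbtb20 knockout, with 0 lower in either. Sh2d1a, which encodes the SAP adaptor of 2B4, read 14.71 in Nr4a1-/- and 4.39 in Nr4a1+/+ samples. Lat and Sh2d1a also serve T cells, whose part in these values was not tested. Of 17 regulators of NK and type 1 cells, lower ones numbered 12 in the Nr4a1 knockout, beside 3 higher, and 8 in the circZbtb20 knockout, beside 4 higher. Nfil3, a factor needed for NK cell development, read 4.35 in Nr4a1-/- and 13.46 in Nr4a1+/+ samples, and 15.80 in circZbtb20-/- and 12.68 in circZbtb20+/+ samples. Runx3 read 8.43 in Nr4a1-/- and 14.16 in Nr4a1+/+ samples, and 15.17 in circZbtb20-/- and 13.48 in circZbtb20+/+ samples. Of 10 genes for IL-2, IL-12, IL-15 and IL-18 and their receptors, 7 were lower in the Nr4a1 knockout and 1 higher. In the circZbtb20 knockout 3 were higher and 3 lower. Il12rb2, a chain of the IL-12 receptor, read 8.13 in circZbtb20-/- and 14.07 in circZbtb20+/+ samples, and 10.02 in Nr4a1-/- and 14.52 in Nr4a1+/+ samples. Among 7 type 1 cytokines and chemokines that allowed a call, 7 were lower in the Nr4a1 knockout. In the circZbtb20 knockout 5 were lower and 1 higher, namely Ifng, at 18.25 in circZbtb20-/- and 8.37 in circZbtb20+/+ samples. Of 17 other surface genes of NK cells, 14 allowed a call in the circZbtb20 pair, with 3 higher and 5 lower in circZbtb20-/- samples. All 17 allowed a call in the Nr4a1 pair, with 4 higher and 7 lower in Nr4a1-/- samples. Among them Cd226, an activating receptor, read 11.30 in circZbtb20-/- and 5.69 in circZbtb20+/+ samples, and 8.56 in Nr4a1-/- and 6.38 in Nr4a1+/+ samples. Of 7 death ligands and receptors, 2 were higher and 2 lower in circZbtb20-/- samples, and 2 were higher and 5 lower in Nr4a1-/- samples. Of 14 ligand genes of the receptors, 13 allowed a call in the circZbtb20 pair, with 5 higher and 2 lower in circZbtb20-/- samples. In the Nr4a1 pair 12 allowed a call, with 3 higher and 4 lower in Nr4a1-/- samples. H2-T23, whose product presents to CD94 with NKG2A, read 10.16 in circZbtb20-/- and 12.23 in circZbtb20+/+ samples. The shares among all genes that allowed a call are those given above, 27.3% higher and 19.4% lower for circZbtb20 and 31.9% and 20.8% for Nr4a1.

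Only a fit that treats both wild types as 1 group can give p-values here, and each knockout array is assumed to vary like them. Its error comes from the differences between those 2 arrays, pooled in part over the 12232 genes fitted. A gene's own difference had 1 degree of freedom, while the pooled error weighed as 3.83, so most of the error was not the gene's own. Benjamini-Hochberg adjusted limma p-values under 0.05 were found for 6 of 34 cytotoxic genes in the circZbtb20 knockout, where 13.6% of 12232 genes passed. All 6 were lower: Gzma at adjusted p = 0.0196, Nkg7 at 0.0203, Fcer1g at 0.0267, Klra9 at 0.0318, Klri1 at 0.0371 and Klrg1 at 0.0408. When limma was run on all 19504 genes without the level filter, 0 genes passed in the circZbtb20 knockout, against 4681 at an unadjusted p under 0.05, so those calls rest on the filter. In the Nr4a1 knockout limma called 16 of 34, where 23.8% of genes passed, 14 lower and 2 higher. Klrb1b at adjusted p = 0.00157, Ncr1 at 0.00225 and Fcer1g at 0.00225 had the smallest limma values among the lower genes, and Klra9 at 0.00752 and Klra10 at 0.0138 were the higher ones. The array that stands apart in T cell and ILC3 markers is the array behind these Nr4a1 calls.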

How the data were processed

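ILC3s of 4 genotypes were measured on 1 array each, and samples were grouped by title. The authors made the deposited log2 values with Affymetrix Power Tools and RMA, per the submitters' processing notes. Neither their versions nor a genome build, not given in the sources used here, could be listed. RMA normalizes arrays to similar distributions, which hides changes in total RNA per cell, and the values have a ceiling at 19.93 that none of the 40 genes reach. Of 22205 rows, 19571 had 1 symbol, 0 several and 2634 none, from the annotation of the platform whose identifiers the rows carry. The series' design text names a different Affymetrix mouse array, so all gene names rest on that annotation. The brightest row was used for each gene, leaving 19504 genes. Each knockout was set against its own wild type. Calls needed a log2 difference of 1 and a higher value at or above its array's median. Alternatives were quantile normalization, median centring, other filters and folds, the other wild type, and limma 3.58.1 in R 4.3.3. The limma fit was run on simulated data with large changes and knockout arrays that vary like the wild types. That run cannot show whether limma p-values hold for smaller differences or for these unreplicated knockout arrays. Every gene of the rule was described; other genes named are Nr4a1, markers under an array median, and up to 3 per list with the greatest difference in a comparison. The members and lists were chosen with earlier results of these data known. RefSeq tables gave names, gene order and promoters.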

Additional observations from a re-analysis of the deposited data

How the results depend on the processing

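There were 9 counts and medians (higher, lower and median difference in 3 comparisons). All 9 changed little under quantile normalization, under median centring and with no filter, medians by less than 0.54. That limit is the median absolute difference of the 40 genes between the wild types. Taking the mean over a gene's rows could not change the 9 results, since 0 of the 40 genes had several rows. Median centring moved the median difference of all genes to 0.14 in the circZbtb20 comparison, where it was 0.04, and to 0.17 in the Nr4a1 comparison, where it was 0.0. With the filter raised to the 75th percentile, the median difference of the cytotoxic genes was -1.67 in the circZbtb20 knockout, where it was -0.80, and -4.05 in the Nr4a1 knockout, where it was -1.54. With that filter 2 of 19 genes were higher in the Nr4a1 knockout in place of 4 of 33, against 43.6% of all genes past it. Lower in the Nr4a1 wild type than in the circZbtb20 wild type were 3 of 18 in place of 6 of 32, against 8.53%. At 4-fold, 1 of 32 genes was higher and 2 were lower in the Nr4a1 wild type than in the circZbtb20 wild type, in place of 6 and 6. The shares of all genes that allowed a call were 1.17% and 0.738%. Against the other wild type, 5 of 30 genes were higher in the circZbtb20 knockout in place of 3 of 32, against 26.4% of all genes that allowed a call. Gzmk in the Nr4a1 knockout reversed against the other wild type, with a difference of 0.23 in place of -1.27. With limma, 0 genes were higher in circZbtb20-/- samples and 6 were lower, and 2 were higher in Nr4a1-/- samples. Limma over all genes with no filter, chosen after seeing the data, gave 0 higher and 0 lower in the circZbtb20 knockout, and 2 higher and 12 lower in the Nr4a1 knockout. The causes were not tested. No paired analysis was possible because each genotype has 1 array and the groups share 1 replicate number only. Leaving out a replicate was not possible for the same reason, and levels near the array medians are poorly measured.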
